A study of Rattus norvegicus with 6 samples.

Results

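Glycolysis and hypoxia response genes were followed in cultured rat chondrocytes by RNA-seq, which counts the RNA fragments of each gene. The 35 genes were taken by their symbol from the deposited table of 18420 genes, and each was found once. They were the enzymes of glycolysis, the carriers of glucose and lactate, kinases that set the flow through the pathway, and genes that the hypoxia-inducible factor HIF-1 controls. Chondrocytes were isolated from wild-type male Sprague-Dawley rats of 180 to 220 g and used at the third passage, and all 6 libraries came from cells given 10 ng/ml TNF-α, an inflammatory cytokine, for 6 h. The 3 libraries of the TNF-α group were taken at 6 h. The 3 libraries of the TNF-α+NFL group were taken at 30 h, after another 24 h with NFL (Nanofat lysate, the cleared freeze–thaw lysate of the stromal cells of rat abdominal fat). Harvest time and NFL therefore cannot be told apart, and no animal is named for any library.

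Glycolysis splits glucose into pyruvate, and lactate dehydrogenase turns pyruvate into lactate when it is not burned in mitochondria. Cartilage has no blood vessels, and its chondrocytes live in low oxygen and depend largely on this pathway for ATP. HIF-1 is made of a subunit, HIF-1α, that prolyl hydroxylases mark for breakdown when oxygen is present, and of a stable partner. In low oxygen HIF-1α accumulates and switches on genes of glucose uptake, glycolysis and lactate export, along with genes of angiogenesis, collagen hydroxylation and mitochondrial turnover. RNA levels report neither the amount of HIF-1α protein nor the flow through glycolysis.

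The libraries held between 19344893 and 19725135 estimated counts. The chondrocyte markers Col2a1, Acan and Sox9 were present at low levels, and 11 of 12 chondrocyte markers passed the filter on low counts, whereas Cnmd had next to none. Summed over the list, these markers stood at 1660.5 to 1763 CPM (counts scaled to a common library size) in the TNF-α libraries and at 1899 to 2083 in the TNF-α+NFL libraries, most of it from Col11a1. The 8 genes of fibroblasts and dedifferentiated chondrocytes, led by Col1a1, summed to 8540.2 to 9195 and to 8960.0 to 9173. Endothelial and blood markers reached at most 0.872 CPM in sum, with Kdr and Hba-a2 at 0 in every library. Macrophage markers summed to 78.1 to 81.7 and to 69.7 to 71.7, nearly all from Cd14 and Cd68, with C1qb at 0. The adipocyte markers summed to between 16.1 and 19.7 in both groups and the pericyte markers to between 116 and 132. Within these sums some markers were separated between the groups. Of the pericyte markers, Mcam was at 29.3 to 31.2 CPM with TNF-α and 38.1 to 40.1 with NFL, and Cspg4 at 68.0 to 82.5 and 61.5 to 65.6. Of the fibroblast genes, Thy1 was at 2037 to 2172 and 2203 to 2287, and Lum at 170.1 to 177 and 148 to 164. Over all tested genes, 8.17% were separated with NFL lower and 8.66% with NFL higher, by normalized CPM. The part of these markers in the results was not tested, and less RNA per cell cannot be told apart from fewer cells of a type. TNF-α replicate 1 stood apart from the other libraries, with Fn1 at 4.46% of its counts against 3.41% to 3.59% elsewhere. It also held most of the few reads of 3 macrophage genes. Csf1r was at 2.07 CPM in it against 0.051 to 0.355 elsewhere, Lyz2 at 0.773 against 0, and Ptprc at 0.362 against at most 0.102. Their part in the calls was not tested.

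All 9 of the most abundant enzymes had a log2 fold change below 0 in the TNF-α+NFL libraries, and 4 of them passed the test while 5 did not. Glucose-6-phosphate isomerase (Gpi), triosephosphate isomerase (Tpi1), phosphoglycerate kinase (Pgk1) and enolase 1 (Eno1) passed an adjusted p of 0.05, with log2 fold changes from -0.19 to -0.18 (SE is the standard error throughout). The log2 fold changes of the other 5, Aldoa, Gapdh, Pgam1, Pkm and Ldha, lay between -0.19 and -0.13. The hexokinase genes Hk1 and Hk2, which encode first enzymes of the pathway, did not pass it, nor did the glucose transporter Slc2a1 or Hif1a, and their log2 fold changes lay between -0.053 and -0.025. Hk3, a hexokinase gene outside the members, was at -0.22 (SE 0.047, edgeR adjusted p = 0.065). In all, 4 of the 35 members fell and 0 rose (quasi-likelihood test of edgeR, p-values adjusted by Benjamini-Hochberg over the 13250 genes tested), where 0.204% of all tested genes fell and 0.408% rose. With upper quartile normalization 2 members fell (Gpi and Eno1), and 0 did with library size only, with limma on log2(FPKM + 1) or with limma on log2(TPM + 1), the last added after the values had been seen. Every call was also lost when any library but TNF-α replicate 1 was left out, and 15 members were called without TNF-α replicate 1, all of them lower. In that fit 3.51% of all tested genes fell and 3.43% rose. At an adjusted p under 0.10, 9 members were lower and 0 higher, against 0.483% of all tested genes lower and 0.755% higher.

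All 35 members passed the filter on low counts. Their log2 fold changes were below 0 for 30 and above 0 for 5, with a median of -0.11, against 51.8% below and 48.2% above 0 and a median of -0.0035 over all tested genes. At an unadjusted p under 0.05, 19 members were lower and 0 were higher, where 5.45% and 5.66% of all tested genes were. In 19 members every TNF-α+NFL library lay below every TNF-α library, and in 1 member every TNF-α+NFL library lay above. Of all tested genes, 8.17% and 8.66% were separated in these directions. These shares are over all tested genes, whatever their level and length. By role, 11 of the 15 glycolytic enzymes were lower at an unadjusted p under 0.05, as were 1 of the 2 lactate dehydrogenase subunits, 1 of the 4 carriers, 0 of the 3 regulatory kinases, 2 of the 3 genes of HIF-1 and its hydroxylases and 4 of the 8 other HIF-1 targets.

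**Figure D1:**
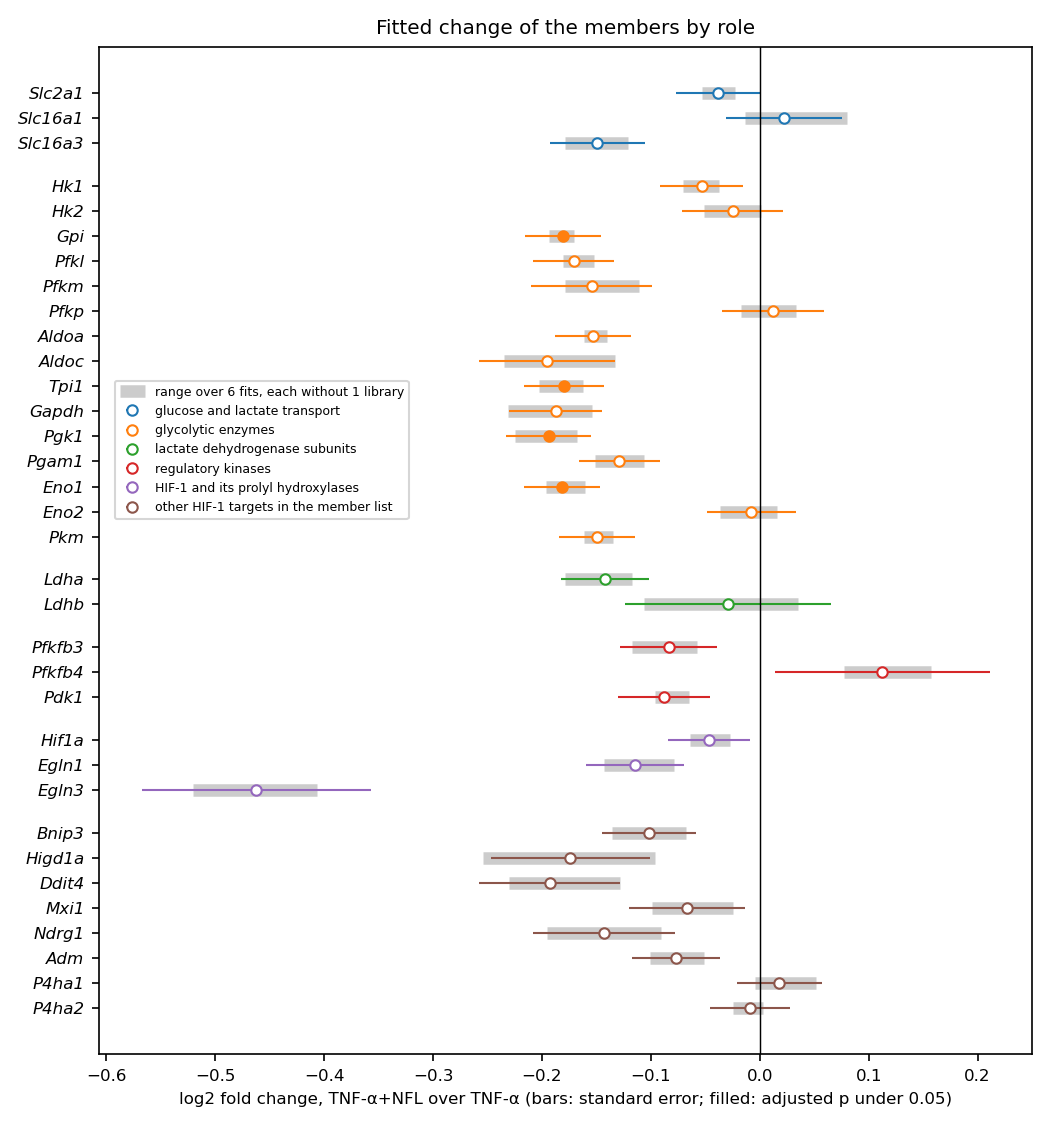
The fitted log2 fold change (TNF-α+NFL over TNF-α) of each member but Slc2a3 is plotted by role, with its standard error as a bar and, in grey, the range over the 6 fits that each left out 1 library. The 4 filled points, Gpi, Tpi1, Pgk1 and Eno1, passed an adjusted p of 0.05. Of the 15 enzymes, 11 lie between -0.20 and -0.13, while Eno2, Pfkp, P4ha1, P4ha2 and Slc16a1 lie near 0.

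The 4 called enzymes were measured as follows. Gpi (gene ID 292804), which converts glucose-6-phosphate to fructose-6-phosphate, had a normalized count (CPM) of 726, 745 and 748 in TNF-α replicates 1, 2 and 3 and 656, 649 and 652 in TNF-α+NFL replicates 1, 2 and 3. Each TNF-α library was above each TNF-α+NFL library, and the 3 TNF-α+NFL values lay close together. The log2 fold change was -0.18 (SE 0.035, edgeR adjusted p = 0.036), so the level fell by 11.8%. For Eno1 (gene ID 24333), which makes phosphoenolpyruvate near the end of the pathway, the CPM was 2479, 2596 and 2528 in the TNF-α libraries and 2239, 2220.0 and 2244 in the TNF-α+NFL libraries. The groups were again separate, with the log2 fold change at -0.18 (SE 0.035, edgeR adjusted p = 0.036).

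Pgk1 (gene ID 24644) carries out the first ATP-forming step of glycolysis. Its CPM was 847, 896 and 916 in the TNF-α libraries and 783, 772 and 769.9 in the TNF-α+NFL libraries, with TNF-α replicate 1 the lowest of its group but above all 3 NFL libraries. The log2 fold change was -0.19 (SE 0.039, edgeR adjusted p = 0.041). Tpi1 (gene ID 24849), which interconverts the triose phosphates, had a CPM of 566, 596 and 593 in the TNF-α libraries and 518, 512 and 519 in the TNF-α+NFL libraries. TNF-α replicate 1 was again the lowest of its group and above all 3 NFL libraries, with a log2 fold change of -0.18 (SE 0.037, edgeR adjusted p = 0.048). A further row, LOC500959, is named Tpi1l1 in RefSeq. With this row summed into Tpi1, the log2 fold change was -0.18 (edgeR adjusted p = 0.0499). Tpi1 and Pgk1 did not pass with upper quartile normalization (edgeR adjusted p = 0.061 and 0.058), whereas Gpi and Eno1 did (0.048 and 0.049). With library size only none of the 4 passed (edgeR adjusted p = 0.056 for Gpi, 0.058 for Eno1, 0.067 for Pgk1 and 0.073 for Tpi1). None passed with limma on log2(FPKM + 1) either (limma adjusted p from 0.20 to 0.24). The exact permutation p of each of the 4 genes was 0.10 (two-sided), the smallest that 3 samples against 3 can give. Of the 6 fits with 1 library left out, each gene passed 0.05 in 1, the fit without TNF-α replicate 1, and its highest adjusted p (edgeR) lay between 0.28 and 0.32 over the 4 genes.

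HIF-1 binds DNA at a core of ACGTG or GCGTG, so promoters of the members were read for these letters. RefSeq promoters of GRCr8 (250 bases before to 50 after the annotated start) matched 32 of the 35 members, all but Pgk1, Slc2a3 and Ndrg1. Either core, on either strand, was found in 23 of 32 member promoters (71.9%), against 42.9% of all promoters in the table and 61.7% of those of tested genes. ACGTG alone was found in 19 of 32 (59.4%), against 19.7% and 25.8%. The members were listed in part as known HIF-1 targets, so these shares describe the list and not a response of the cells. No share was computed for promoters of like content of G and C. Members with either core had a median log2 fold change of -0.10 and those without it -0.15. The 250 bases before the start follow for the 3 called members with a promoter in the table, for Egln3 as the member with the lowest fold change, and for Ldha and P4ha2, which hold several matches.

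Each sequence reads 5′ to 3′ toward the start of the gene (GRCr8). Capitals mark ACGTG or GCGTG, or CACGT or CACGC where the core is on the other strand, and overlapping matches run together. Gpi lies at chr1:95993262-95993511, minus strand, Eno1 at chr5:166002617-166002866, plus strand, Tpi1 at chr4:159305089-159305338, minus strand, Egln3 at chr6:77411016-77411265, minus strand, Ldha at chr1:106507842-106508091, plus strand and P4ha2 at chr10:38743644-38743893, plus strand.
Gpi: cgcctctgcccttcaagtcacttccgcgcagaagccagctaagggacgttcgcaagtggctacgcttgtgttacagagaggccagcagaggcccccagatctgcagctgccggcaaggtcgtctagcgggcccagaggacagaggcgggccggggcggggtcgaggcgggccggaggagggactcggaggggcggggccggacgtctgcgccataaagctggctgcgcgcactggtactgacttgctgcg
Eno1: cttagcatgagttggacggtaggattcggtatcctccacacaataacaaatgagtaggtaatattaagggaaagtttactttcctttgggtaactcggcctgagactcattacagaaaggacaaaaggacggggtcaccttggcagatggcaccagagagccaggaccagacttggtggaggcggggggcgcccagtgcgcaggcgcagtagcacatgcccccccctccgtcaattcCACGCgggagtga
Tpi1: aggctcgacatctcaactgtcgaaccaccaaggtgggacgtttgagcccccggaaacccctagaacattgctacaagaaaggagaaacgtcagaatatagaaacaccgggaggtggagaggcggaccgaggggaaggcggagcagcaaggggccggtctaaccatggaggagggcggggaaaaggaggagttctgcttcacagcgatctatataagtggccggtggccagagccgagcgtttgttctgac
Egln3: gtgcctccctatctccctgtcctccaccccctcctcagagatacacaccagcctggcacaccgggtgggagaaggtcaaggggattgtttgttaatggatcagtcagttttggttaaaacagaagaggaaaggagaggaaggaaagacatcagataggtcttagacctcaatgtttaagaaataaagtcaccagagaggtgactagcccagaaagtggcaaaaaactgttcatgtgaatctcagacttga
Ldha: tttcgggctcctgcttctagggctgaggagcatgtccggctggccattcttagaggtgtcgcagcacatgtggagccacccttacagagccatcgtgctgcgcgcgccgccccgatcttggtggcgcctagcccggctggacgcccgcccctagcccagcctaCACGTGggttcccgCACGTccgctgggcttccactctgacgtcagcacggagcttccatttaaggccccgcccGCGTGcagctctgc
P4ha2: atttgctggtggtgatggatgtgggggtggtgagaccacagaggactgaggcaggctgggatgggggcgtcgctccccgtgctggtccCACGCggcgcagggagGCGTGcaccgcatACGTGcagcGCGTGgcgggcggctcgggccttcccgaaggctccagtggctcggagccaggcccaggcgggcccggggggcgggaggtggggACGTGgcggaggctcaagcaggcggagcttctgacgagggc

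Tpi1 and Egln3 hold no match in these letters, Gpi holds 1 match only after its start, and Eno1 holds 1 just before it. P4ha2 holds 5 matches and Ldha holds 4 before the start. A match in letters is not a binding site, and its absence from a window says nothing of HIF-1.

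The other abundant enzymes did not pass the threshold over all genes, although their libraries were also separated by group. Gapdh (gene ID 24383), the enzyme that oxidizes glyceraldehyde-3-phosphate and a common reference gene, was the most abundant member, with a CPM of 4376, 4861 and 4772 in the TNF-α libraries and 4101, 4120.2 and 4083 in the TNF-α+NFL libraries. TNF-α replicate 1 lay nearer to the NFL libraries than to the other TNF-α libraries. The log2 fold change of Gapdh was -0.19 (SE 0.043, edgeR adjusted p = 0.076), and over the fits with 1 library left out it ran from -0.23 without TNF-α replicate 1 to -0.15. Aldoa (gene ID 24189), the main aldolase, had a CPM of 1845, 1830.1 and 1800.2 in the TNF-α libraries and 1663, 1612 and 1649 in the TNF-α+NFL libraries. Here TNF-α replicate 1 was the highest library, unlike in the other abundant enzymes, and the log2 fold change was -0.15 (SE 0.035, edgeR adjusted p = 0.076).

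Pkm (gene ID 25630), pyruvate kinase, had a CPM of 2616, 2702 and 2667 in the TNF-α libraries and 2392, 2365 and 2443 in the TNF-α+NFL libraries. The gap between the groups was wider than the spread within either, at a log2 fold change of -0.15 (SE 0.035, edgeR adjusted p = 0.084). Ldha (gene ID 24533), the subunit that favours lactate formation, had a CPM of 1805, 1961 and 1949 in the TNF-α libraries and 1743, 1691 and 1745 in the TNF-α+NFL libraries. TNF-α replicate 1 lay closer to the NFL libraries than to TNF-α replicates 2 and 3, and the log2 fold change was -0.14 (SE 0.041, edgeR adjusted p = 0.18). Pgam1 (gene ID 24642), phosphoglycerate mutase, had a CPM of 613, 636 and 651 in the TNF-α libraries and 581, 582 and 575 in the TNF-α+NFL libraries. It had the smallest change of the abundant enzymes, at -0.13 on the log2 scale (SE 0.037, edgeR adjusted p = 0.18). Without TNF-α replicate 1, Gapdh, Aldoa, Pkm, Ldha and Pgam1 were each past 0.05, and none of them was in the other 5 fits that left out a library.

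Phosphofructokinase, which commits sugar to glycolysis, has 3 isoenzyme genes. Pfkl (gene ID 25741) had a CPM of 228, 220.3 and 219 in the TNF-α libraries and 194, 198 and 199.6 in the TNF-α+NFL libraries, with no overlap. Its log2 fold change was -0.17 (SE 0.037, edgeR adjusted p = 0.066). Pfkm had a CPM of 33.2, 32.5 and 35.7 in the TNF-α libraries and 30.7, 30.5 and 29.9 in the TNF-α+NFL libraries, again with no overlap, and a log2 fold change of -0.15 (SE 0.055, edgeR adjusted p = 0.30). Pfkp had a CPM of 59.5, 63.4 and 62.8 in the TNF-α libraries and 61.1, 61.1 and 65.0 in the TNF-α+NFL libraries. Its groups overlapped, at a log2 fold change of 0.012 (95% interval -0.090 to 0.11). Aldoc, the minor aldolase, had a CPM of 48.0, 49.6 and 55.1 in the TNF-α libraries and 46.1, 41.3 and 46.0 in the TNF-α+NFL libraries, without overlap, and a log2 fold change of -0.20 (SE 0.062, edgeR adjusted p = 0.23). Eno2, the second enolase, had a CPM of 214, 226 and 230.3 in the TNF-α libraries and 228, 217 and 222 in the TNF-α+NFL libraries. The groups were interleaved, at -0.0078 on the log2 scale (95% interval -0.096 to 0.080), and the direction turned in several alternative fits.

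Hk1 and Hk2 phosphorylate glucose on entry. The CPM of Hk1 (gene ID 25058) was 223, 216 and 216 in the TNF-α libraries and 207, 209 and 216 in the TNF-α+NFL libraries. The highest NFL library lay just below the lowest TNF-α library, and the log2 fold change was -0.053 (SE 0.038, edgeR adjusted p = 0.66). Hk2 (gene ID 25059) was at 70.0, 64.8 and 68.1 in the TNF-α libraries and 65.0, 65.8 and 68.7 in the TNF-α+NFL libraries. Its groups overlapped throughout, with a log2 fold change of -0.025 (95% interval -0.13 to 0.075). The interval of Gpi, -0.26 to -0.11, overlapped that of Hk2, and no contrast between the 2 genes was fitted. Hk3 was at 56.3, 53.0 and 53.4 in the TNF-α libraries and 46.4, 46.0 and 47.7 in the TNF-α+NFL libraries, with no overlap.

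**Figure D2:**
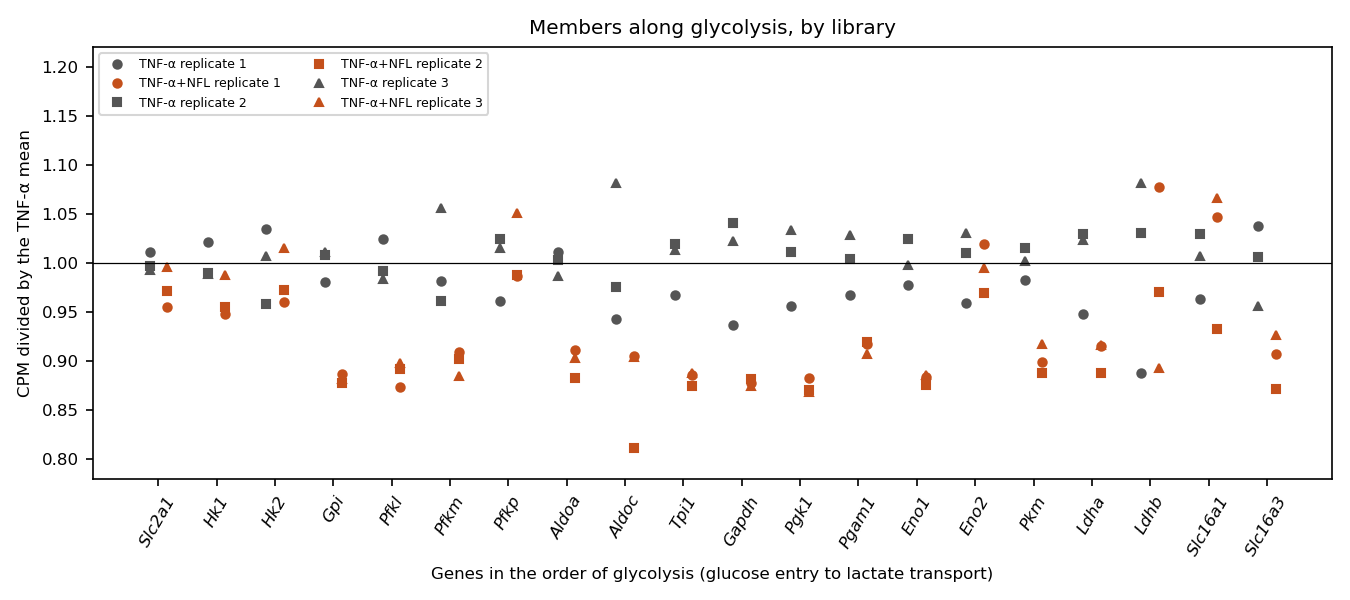
CPM of 20 members divided by the mean of the 3 TNF-α libraries, for genes in the order of glycolysis from glucose entry to lactate transport. Each point is a library (grey, TNF-α; orange, TNF-α+NFL; the shape gives the replicate). From Gpi to Ldha the orange points lie at about 0.9 of the TNF-α mean, except for Pfkp and Eno2, and TNF-α replicate 1 is the lowest grey point in 8 of the 9 most abundant enzymes.

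Compared per length, in TPM (counts scaled by gene length and library size), the steps of glycolysis differed widely in level and little between groups. Gapdh stood at 7201 ± 264 TPM with TNF-α and at 6477 ± 65.7 with NFL (SD, n = 3). Eno1 followed at 2864 ± 51.7 and 2584 ± 0.202, then Aldoa at 2509 ± 86.6 and 2305 ± 25.6. Ldha, at 2332 ± 60.4 and 2164 ± 26.8, and Pkm, at 2217 ± 26.1 and 2048 ± 23.4, came next in that order. Pgk1, Tpi1, Gpi and Pgam1 lay between 642 and 1045 TPM. The regulated early steps were far lower: Hk1 and Hk2 together held 156 ± 7.06 and 154 ± 3.12 TPM (SD, n = 3), or 191 ± 9.03 and 185 ± 3.65 with Hk3 and Hkdc1 added, and the 3 phosphofructokinases 226 ± 6.42 and 211 ± 2.98.

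Summed over the members of each step in TPM, the ratio of the TNF-α+NFL mean to the TNF-α mean ran from 0.895 for phosphoglycerate kinase to 0.936 for phosphoglycerate mutase over the 10 steps from glucose-6-phosphate isomerase to lactate dehydrogenase. None of these 10 steps overlapped between the groups. For single genes, the TPM of 5.06% of all tested genes was separated with NFL lower and of 11.6% with NFL higher, and no such share was computed for sums by step. The groups overlapped at the steps before and after these. The ratio was 0.989 for Hk1 and Hk2, and 0.969 with Hk3 and Hkdc1 added. It was 0.959 for Slc16a3 and Slc16a1, and 0.994 with Slc16a7, a further monocarboxylate carrier. For glucose entry it was 1.05, where Slc2a1 stood at 91.6 ± 2.89 TPM with TNF-α and 91.2 ± 1.81 with NFL (SD, n = 3), and the rest came from Slc2a3, whose reads were divided with another row. These additions were chosen after the values had been seen. The position of TNF-α replicate 1 depended on the scale. It was the lowest TNF-α library in 8 of the 9 most abundant enzymes by CPM and in 5 of the 9 by TPM, and the groups were separate, with NFL lower, in 9 of the 9 on both scales, where 8.17% of all tested genes were by CPM and 5.06% by TPM.

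**Figure D3:**
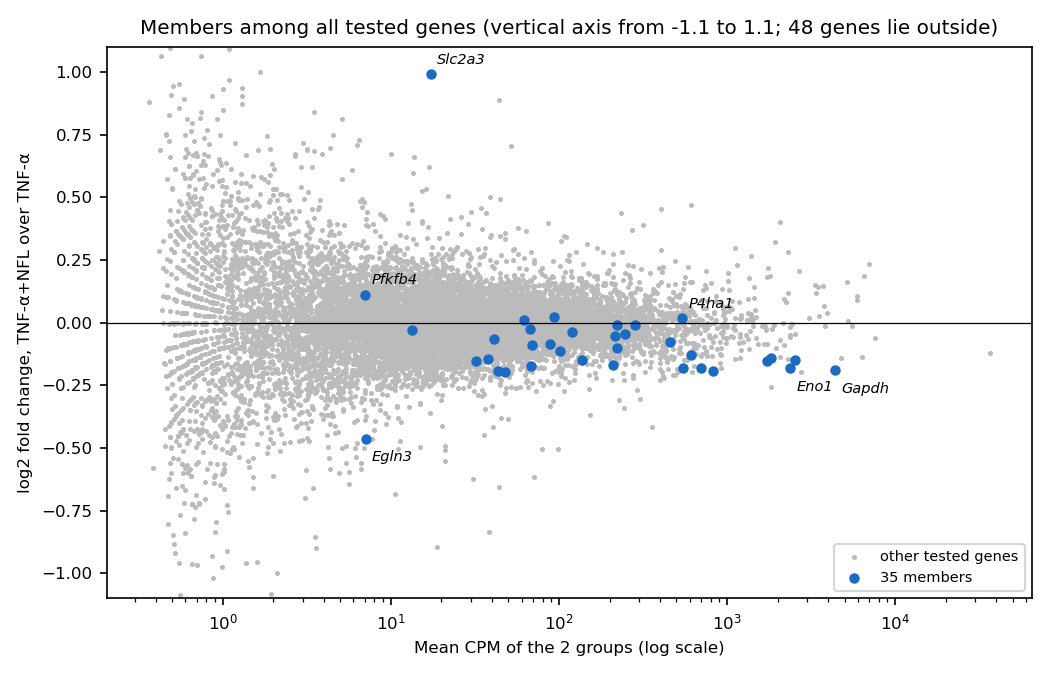
The log2 fold change (TNF-α+NFL over TNF-α) of each tested gene against its mean CPM on a log scale, with the 35 members in blue. Gapdh has the highest level of the members and lies below 0, Egln3 is low in level at -0.46, and Slc2a3 stands apart at 0.99. The vertical axis leaves out 48 of the tested genes.

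Among the members of each isoenzyme family, a single gene held most of the TPM. Aldoa made up 97.5% ± 0.209 with TNF-α and 97.6% ± 0.109 with NFL (SD, n = 3) of the aldolase TPM and Ldha 99.2% ± 0.0510 with TNF-α and 99.1% ± 0.0850 with NFL (SD, n = 3) of the lactate dehydrogenase TPM. Hk1 held 83.2% ± 0.557 with TNF-α and 82.9% ± 0.0850 with NFL (SD, n = 3) of the TPM of Hk1 and Hk2, with overlap between the groups. With Hk3 and Hkdc1 in the sum its share was 68.0% ± 0.533 with TNF-α and 69.1% ± 0.050 with NFL (SD, n = 3), without overlap, and that of Hk3 was 18.1% ± 0.158 with TNF-α and 16.5% ± 0.110 with NFL (SD, n = 3). Eno1 held 93.7, 93.7 and 93.4% in the TNF-α libraries and 92.7, 92.9 and 92.9% in the TNF-α+NFL libraries of the TPM of Eno1 and Eno2, and the 2 groups did not overlap. With Eno3 and Eno4 in the sum its share was 92.6% ± 0.167 with TNF-α and 91.6% ± 0.227 with NFL (SD, n = 3), also without overlap. Pfkl held 70.8, 69.4 and 68.6% in the TNF-α libraries and 67.6, 68.1 and 67.5% in the TNF-α+NFL libraries of the phosphofructokinase TPM, also without overlap, while Pfkp held 18.9, 20.4 and 20.1% in the TNF-α libraries and 21.7, 21.4 and 22.4% in the TNF-α+NFL libraries, the reverse order. The shares of Aldoa, Ldha, Pfkm, Pfkfb3 and P4ha1 within their families overlapped between the groups. No test was run on the shares, and how often shares of other genes are separated was not computed.

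**Figure D4:**
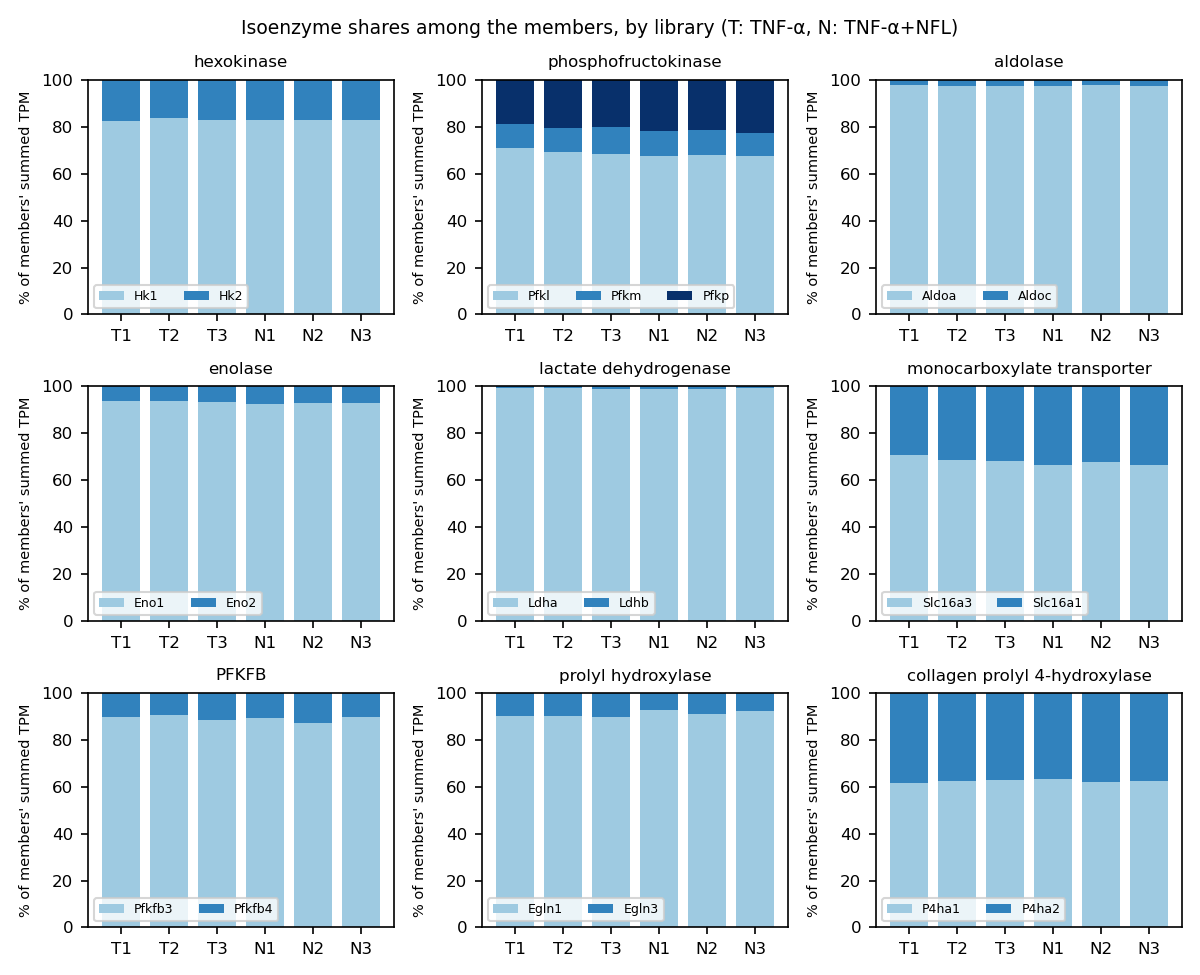
Share of each isoenzyme in the summed TPM of the members of its family, in percent, by library (T1 to T3, TNF-α replicates; N1 to N3, TNF-α+NFL replicates). Aldoa, Ldha and Eno1 fill at least 92.7% of their families in every library, and Pfkl between 67.5% and 70.8%.

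The carriers at both ends of the pathway were mixed. Slc2a1 (gene ID 24778), the widely expressed glucose transporter GLUT1, had a CPM of 123, 121 and 120.3 in the TNF-α libraries and 116, 118 and 121 in the TNF-α+NFL libraries. The values of the groups overlapped, at a log2 fold change of -0.038 (95% interval -0.12 to 0.045). Slc16a3, which encodes the lactate exporter MCT4, had a CPM of 151, 146 and 139 in the TNF-α libraries and 132, 126 and 134 in the TNF-α+NFL libraries. It was lower in each NFL library, at -0.15 on the log2 scale (SE 0.043, edgeR adjusted p = 0.19). Its fractional counts added up to whole numbers with those of Csnk1d in every library, so some reads were divided between these genes. Slc16a1, which encodes MCT1, had a log2 fold change of 0.022 (95% interval -0.093 to 0.14). By TPM, Slc16a3 held 69.2% ± 1.19 with TNF-α and 66.9% ± 0.916 with NFL (SD, n = 3) of the 2 carriers' sum, and the groups did not overlap. With Slc16a7 in the sum its share was 45.2% ± 1.31 with TNF-α and 42.1% ± 0.184 with NFL (SD, n = 3), again without overlap.

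Slc2a3 (gene ID 25551), which encodes the glucose transporter GLUT3, had the largest log2 fold change among the members, 0.99 (SE 0.59, edgeR adjusted p = 0.65). Over the fits with 1 library left out it was lowest, at 0.62, when TNF-α replicate 1 was omitted, and highest, at 1.65, when TNF-α replicate 3 was. Its estimated counts were 89.8, 196 and 394 in the TNF-α libraries and 425, 310.4 and 615 in the TNF-α+NFL libraries, a wide spread within each group. The row LOC100909595 had 1240.2, 1300.4 and 1019 and 1109.8, 1173 and 1019 in the same order. The fractions of the 2 rows added up to whole counts in all 6 libraries (within 0.03), so the estimate divided shared reads between them. Their sums were 1330, 1496 and 1413 in the TNF-α libraries and 1535, 1483 and 1634 in the TNF-α+NFL libraries. Summed and normalized, the CPM was 72.3 ± 3.13 with TNF-α and 79.2 ± 3.68 with NFL (SD, n = 3), a log2 fold change of 0.13 (SE 0.050, edgeR adjusted p = 0.32). This setting was chosen after the values had been seen.

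Of the kinases that regulate the pathway, none passed the threshold. Pfkfb3, whose product makes an activator of phosphofructokinase, had a CPM of 91.7 ± 4.09 with TNF-α and 86.6 ± 0.456 with NFL (SD, n = 3) and a log2 fold change of -0.084 (SE 0.044, edgeR adjusted p = 0.54). Its lowest TNF-α value lay just above its highest NFL value. Pdk1, which holds pyruvate back from the mitochondria, had a CPM of 71.1 ± 1.78 with TNF-α and 66.9 ± 0.590 with NFL (SD, n = 3) without overlap and a log2 fold change of -0.088. Pfkfb4, a relative of Pfkfb3, was higher in each NFL library, at 0.11 (95% interval -0.10 to 0.33), from a low CPM of 6.77 ± 0.0884 with TNF-α and 7.32 ± 0.411 with NFL (SD, n = 3).

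Hif1a (gene ID 29560), which encodes HIF-1α, was at 257, 251 and 243 in the TNF-α libraries and 247, 239.5 and 241 in the TNF-α+NFL libraries by CPM. The groups overlapped, with a log2 fold change of -0.047 (95% interval -0.13 to 0.035). Its prolyl hydroxylases are themselves induced by HIF-1. Egln3 (gene ID 54702), which encodes PHD3, had a CPM of 7.80, 8.10 and 8.80 in the TNF-α libraries and 5.51, 6.45 and 5.96 in the TNF-α+NFL libraries. Every NFL library was below every TNF-α library, and the log2 fold change of -0.46 (SE 0.11, edgeR adjusted p = 0.077) was the lowest among the members, from 108 to 174 estimated counts in a library. Egln1, which encodes PHD2, the main oxygen-sensing hydroxylase, had a CPM of 102, 105 and 111 in the TNF-α libraries and 99.6, 94.8 and 99.4 in the TNF-α+NFL libraries. It was also separated by group, at -0.11 (SE 0.045, edgeR adjusted p = 0.35). Egln3 held 9.77, 9.81 and 10.1% in the TNF-α libraries and 7.26, 8.78 and 7.81% in the TNF-α+NFL libraries of the TPM of the 2 hydroxylase genes.

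Among the other HIF-1 targets, none passed the adjusted threshold, and 4 of 8 (Ddit4, Bnip3, Higd1a and Ndrg1) were lower at an unadjusted p under 0.05, where 5.45% of all tested genes were. Ddit4, an inhibitor of mTOR signalling, had a CPM of 50.6, 45.1 and 43.9 in the TNF-α libraries and 41.7, 42.7 and 37.7 in the TNF-α+NFL libraries. The groups did not overlap, at a log2 fold change of -0.19 (SE 0.065, edgeR adjusted p = 0.26). Bnip3, which promotes the removal of mitochondria, was at 219.6, 232 and 241 in the TNF-α libraries and 212, 212 and 222 in the TNF-α+NFL libraries. TNF-α replicate 1 fell within the NFL range, and the log2 fold change was -0.10 (SE 0.043, edgeR adjusted p = 0.40). Higd1a, a mitochondrial protein gene, had a CPM of 64.4, 73.7 and 80.2 in the TNF-α libraries and 67.4, 62.1 and 64.1 in the TNF-α+NFL libraries, with the same overlap by TNF-α replicate 1. Its log2 fold change of -0.17 (SE 0.073, edgeR adjusted p = 0.41) was -0.25 without that library (adjusted p = 0.0022, edgeR) and -0.096 without TNF-α replicate 3 (adjusted p = 0.70, edgeR). Ndrg1 had a CPM of 42.8, 37.5 and 39.6 in the TNF-α libraries and 35.9, 33.8 and 38.8 in the TNF-α+NFL libraries, with overlap between the groups and a log2 fold change of -0.14 (SE 0.065, edgeR adjusted p = 0.44), which ran from -0.20 without TNF-α+NFL replicate 3 to -0.090 without TNF-α replicate 1.

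Adm, which encodes the vasodilator peptide adrenomedullin, was abundant at a CPM of 468 ± 15.8 with TNF-α and 444 ± 13.9 with NFL (SD, n = 3), with a log2 fold change of -0.077 (95% interval -0.16 to 0.011). Mxi1, an antagonist of MYC, was at -0.067 (95% interval -0.18 to 0.049). The subunits of collagen prolyl 4-hydroxylase, which stabilizes the collagen triple helix, lay near 0: P4ha1 was at 0.018 (95% interval -0.067 to 0.10) and P4ha2 at -0.0087 (95% interval -0.088 to 0.071). The CPM of P4ha1 ran from 519 to 559.8 with TNF-α and from 537 to 553 with NFL. Ldhb, the minor lactate dehydrogenase subunit, was at -0.029 (95% interval -0.23 to 0.18) with 13.5 CPM in the TNF-α group.

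Other genes of the pathway, from lists written for this comparison, were read beside the members. At an adjusted p under 0.05, 0.204% of all tested genes were lower and 0.408% higher. At an unadjusted p under 0.05, 5.45% were lower and 5.66% higher. Of the 48 further HIF-1 targets tested, 2 fell and 0 rose at an adjusted p under 0.05, with 8 lower and 1 higher at an unadjusted p under 0.05 and a median log2 fold change of -0.034. Mif, which encodes macrophage migration inhibitory factor, was at 252 ± 5.60 CPM with TNF-α and 203 ± 5.45 with NFL (SD, n = 3), a log2 fold change of -0.31 (SE 0.039, edgeR adjusted p = 0.0047). Fam162a, a mitochondrial protein gene, was at 99.9, 106 and 113 and 93.1, 88.8 and 87.5 CPM, a log2 fold change of -0.25 (SE 0.051, edgeR adjusted p = 0.049). Among 29 further genes of glycolysis and glucose entry, 0 passed in either direction by edgeR, with 4 lower and 2 higher at an unadjusted p under 0.05. Hk3 had the smallest p among these, followed by Pdk3 at -0.17. Of the 21 genes that act on HIF itself, 0 passed by edgeR, and 1 was lower and 1 higher at an unadjusted p under 0.05. These were Rack1 at -0.12 and Crebbp at 0.22 on the log2 scale.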

How the data were processed

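Gene expression was measured by RNA-seq of poly(A) RNA in single-end reads. The submitters' processing notes name HISAT2 2.0.4, Bowtie2 2.2.5, RSEM 1.2.12 and the build Rnor_6.0, without roles. For each gene and library, the table deposited by the authors gives TPM, FPKM and estimated counts. Estimated counts are not normalized and need not be whole. Rows that share reads with a copy are uncertain, since the estimate divides the reads. After rounding, edgeR 4.0.16 (R 4.3.3) was run with filterByExpr, TMM factors and its robust quasi-likelihood F test (Benjamini-Hochberg over 13250 genes); SE is the fold change divided by the root of F, and 95% intervals use the t distribution at the residual degrees of freedom of that fit. TPM was used to compare genes. RefSeq GRCr8 matched 17068 of 18420 gene identifiers and supplied the promoters. The members, gene lists and tests were chosen with earlier results of these data known. Every member is accounted for, with values by library for members past an adjusted p of 0.05, for those at an unadjusted p under 0.05 and for Hk1, Hk2, Gapdh, Ldha, Slc2a1 and Hif1a; other lists name genes past 0.05 and a pair with the smallest p. Alternatives used DESeq2 1.42.0 and limma 3.58.1. The study calls the replicates independent, but p-values measure only the spread between these libraries. The fits were tested on simulated data.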

Additional observations from a re-analysis of the deposited data

How the results depend on the processing

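The number of members called lower depended on the settings, whereas 0 members were called higher in every alternative run. Against 4 lower members, there were 8 with no filter on low counts and with the DESeq2 Wald test, 2 with upper quartile normalization, 0 with library size only, 0 with limma on log2(FPKM + 1), 10 with each library's trend with gene length removed, 19 at an unadjusted p under 0.05 and 9 at an adjusted p under 0.10. Fitted with a replicate block, there were 0 (deviations of same-numbered libraries correlated at 0.030, -0.024 and 0.10, so the numbers were not taken as pairs), and with the replicate block and the length trend removed together 7. With limma on log2(TPM + 1), added after the data had been seen, there were 0, and the median log2 fold change of the members was -0.079 where that of all genes was 0.025. Over the alternatives with all 6 libraries at an adjusted p under 0.05, the share of all tested genes called lower ran from 0.0226% with FPKM to 0.642% with the length trend removed. The 4 genes were called with at least 10 counts in every sample, DESeq2's size factors, limma-voom and, added later, copies summed. With the length trend removed, each of the 9 most abundant enzymes had a smaller fall than in the main fit. Gapdh was at -0.15 on the log2 scale against -0.19, Aldoa at -0.12 against -0.15 and Ldha at -0.12 against -0.14. Other members lay lower there, such as Egln1 at -0.14 against -0.11 and Pfkfb3 at -0.11 against -0.084. How much of the fall follows gene length was not tested. Across the 6 fits that left out 1 library, the number ran from 0 to 15 and the median log2 fold change of the members from -0.12 to -0.091, against -0.11. The 15 came without TNF-α replicate 1, where 3.51% of all genes were lower. The cause was not tested.

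Members near 0 changed direction. With the length trend removed, Eno2 was at 0.0023 and Ldhb at 0.0078, and with the replicate block added at 0.0024 and 0.0067. On log2(TPM + 1), P4ha2 was at 0.027, Hk2 at 0.0099, Eno2 at 0.026 and Ldhb at 0.0037. Over the fits that left out 1 library, the log2 fold change of Eno2 ran from -0.036 to 0.016, of Ldhb from -0.11 to 0.035, of P4ha1 from -0.0048 to 0.052, of P4ha2 from -0.024 to 0.0027, of Hk2 from -0.051 to 0.0011, of Pfkp from -0.018 to 0.033 and of Slc16a1 from -0.013 to 0.080. The other 28 members kept their direction in each alternative run. The share of member promoters with a core was 71.9%, and 59.4% with ACGTG alone.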

Other observations

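Branches that leave or feed glycolysis held no gene past an adjusted p of 0.05 by edgeR in either direction. At an unadjusted p under 0.05, 5.45% of all tested genes were lower and 5.66% higher, and the counts of these short lists are read against those shares, with no test. Of the 17 genes of the pentose phosphate and hexosamine branches, 5 were lower and 0 higher at an unadjusted p under 0.05, with a median log2 fold change of -0.051. Gfpt2, which starts hexosamine synthesis, was at -0.22 (SE 0.059, edgeR adjusted p = 0.14), and Prps1, which makes the nucleotide precursor PRPP, at -0.21. Of 14 glycogen genes, 2 were lower and 0 higher at an unadjusted p under 0.05. Pygl, a glycogen phosphorylase, had a CPM of 69.3, 71.5 and 70.1 in the TNF-α libraries and 62.0, 60.4 and 62.6 in the TNF-α+NFL libraries, without overlap, at a log2 fold change of -0.19 (SE 0.042, edgeR adjusted p = 0.073). Gys1, glycogen synthase, was at -0.11.

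Of the 35 genes of pyruvate entry and the TCA cycle, 3 were lower and 0 higher at an unadjusted p under 0.05, and the median log2 fold change was -0.029. Got2, of the malate-aspartate shuttle, was at -0.10 and Idh3b, an isocitrate dehydrogenase subunit listed as Idh3B, at -0.12. Of the 6 genes of the serine branch, 1 was lower and 0 higher at an unadjusted p under 0.05, Shmt2 at -0.13, and the next by p was Shmt1 at 0.094. None of the 5 tested genes of gluconeogenesis had an unadjusted p under 0.05, and the smallest p values were those of Pc, at -0.10, and of Fbp1, at 0.35 with a mean of 0.493 CPM in the TNF-α group. The standard deviation of the CPM was larger in the TNF-α group than in the TNF-α+NFL group for 27 of the 35 members, and for 8276 of the 13250 tested genes.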
